A study of Mus musculus with 10 samples.

Results

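The 10 genes described here encode the pan-endocrine transcription factors, which act in hormone-producing cells of gut and pancreas whatever hormone these cells make: Neurog3, Neurod1, Insm1, Nkx2-2, Rfx6, Rfx3, Pax6, Isl1, Myt1 and St18. They were taken by gene symbol, 10 of the 54532 genes in the deposited count table, and earlier results of these data were known when they were chosen. RNA-seq libraries were made from small intestinal cells of 5 Gucy2c-GFP reporter mice on the outbred CD1/ICR background, litter-matched and 10 weeks old. Every mouse carried the same transgene, in which the promoter of Gucy2c, the gene of the guanylate cyclase C receptor, drives green fluorescent protein, and every mouse gave cells of high fluorescence (GUCY2Chi, n = 5 libraries) and cells of medium fluorescence (GUCY2Cmed, n = 5 libraries), 20000 cells each. The groups thus differ in the fluorescence gate and not in genotype, treatment or age, and a library is a mixture of whatever cells fell in its gate. The numbers 2, 7, 12, 14 and 15 in the labels are taken as the mice, and values given in a row below follow that order.

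Enteroendocrine cells arise from crypt progenitors that briefly switch on Neurog3, a basic helix-loop-helix (bHLH) factor without which the gut makes almost no hormone-producing cells. Neurog3 turns on a next tier, among them Neurod1, Insm1 and Nkx2-2, and later factors such as Rfx6, Pax6 and Isl1 persist while the cells choose and maintain their hormones. Neurog3 itself is normally lost soon after commitment, so its message marks progenitors and that of the later factors marks committed and mature cells.

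Each library held 13090212 to 13520800 counted reads in GUCY2Chi cells and 10903958 to 15307932 in GUCY2Cmed cells. Gucy2c, the gene whose promoter drives the reporter, was higher in GUCY2Chi cells by 1.71 on the log2 scale (SE 0.32, adjusted p = 0.00187). Of the enteroendocrine markers, hormone and granule genes such as Gcg, Cck and Chga, 10 of 10 were higher in GUCY2Chi cells. Over all tested genes 13.9% were called higher. The summed level of the markers was 35828 to 140149 cpm in GUCY2Chi cells against 123 to 392 in GUCY2Cmed cells. The paper names Gcg, Cck and Chga among the most upregulated genes of these libraries, and the marker list was chosen with earlier results known. The count is thus a description and no independent check of the population. Cpm are read counts scaled to a common library size, here with trimmed mean of M-values (TMM) factors. Fold changes and adjusted p are from edgeR's quasi-likelihood test of GUCY2Chi over GUCY2Cmed, with Benjamini-Hochberg adjustment over the 15703 genes that passed a filter on low counts, and a gene was called at an adjusted p under 0.01. The p-values measure the spread between the 5 libraries of each group and leave out the pairing of libraries by mouse. Fits with the mouse as replicate block are given as alternatives.

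Promoter sequence is shown for 3 of the factors, because they stand for the range of outcomes: Neurog3 did not differ between the populations beyond the spread over mice, Neurod1 was the most abundant factor of GUCY2Chi cells, and Pax6 is a homeodomain factor of the maturation tier. The bases are from the 250 upstream of the RefSeq transcript start on GRCm38.p6, 5′ to 3′ on the strand of the gene, without any base inside a gene listed on that strand. All 250 are shown for Neurog3 and Pax6, and for Neurod1 those farthest from the start, since the 149 nearest to it lie inside such a gene. Capitals mark matches to CANNTG (the E-box that bHLH factors bind), TGACGTCA (the cyclic AMP response element) and GTTGCC or its complement GGCAAC (a half-site of RFX factors). Neurog3 lies at chr10:62132840-62133089 on the plus strand, Neurod1 at chr2:79456786-79456886 on the minus strand and Pax6 at chr2:105668646-105668895 on the plus strand.
Neurog3: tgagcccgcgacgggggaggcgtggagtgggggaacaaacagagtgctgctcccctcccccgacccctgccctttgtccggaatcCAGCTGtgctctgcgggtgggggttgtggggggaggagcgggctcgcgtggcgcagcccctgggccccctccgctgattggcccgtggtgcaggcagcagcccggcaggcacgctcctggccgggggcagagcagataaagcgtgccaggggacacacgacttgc
Neurod1: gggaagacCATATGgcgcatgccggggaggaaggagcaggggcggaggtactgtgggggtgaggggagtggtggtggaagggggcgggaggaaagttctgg
Pax6: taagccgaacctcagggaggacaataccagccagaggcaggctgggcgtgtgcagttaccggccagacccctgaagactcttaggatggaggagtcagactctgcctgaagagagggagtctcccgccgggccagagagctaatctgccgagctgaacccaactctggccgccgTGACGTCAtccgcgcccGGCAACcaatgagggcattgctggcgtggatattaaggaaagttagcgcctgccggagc
The RefSeq table held 11 windows of 250 bases before a start for 8 of the 10 factors, all but Insm1 and St18. An E-box on either strand was found in 7 of these 11 windows, from 6 of the 8 factors, and 66.2% of all 32851 windows held one. The E-box of the form CATATG, which is also a CANNTG match, occurred in Neurod1 alone and in 3.46% of all windows, and the form CAGATG (or CATCTG) occurred in Nkx2-2 alone and in 14.4%. The RFX half-site was found in Pax6 alone and in 10.4% of all windows, TGACGTCA in Pax6 alone and in 1.55%, and the homeodomain core TAATTA in none of the 11 windows and in 4.84% of all. These are matches of letters and no measure of binding.

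Of the 10 factors, 9 were higher in GUCY2Chi cells and none was lower, beside 13.9% of all tested genes called higher and 8.79% called lower. For the same 9 factors every GUCY2Chi library lay above every GUCY2Cmed library, as it did for 16.7% of all tested genes. The exception was Neurog3, the commitment factor, whose groups overlapped. By edgeR, limma-voom and DESeq2 alike 0 factors were called lower, and 0 had an unadjusted p under 0.05 in that direction. The median log2 fold change of the 10 factors was 6.80, beside 0.09 over all tested genes and 0.33 over the 970 tested genes to which the table gives a transcription factor family. Among those 970 genes, 13.1% were called higher and 5.46% lower. In a mixed sample, more cells of a type and more RNA per cell cannot be told apart, and this holds for each change given here.

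**Figure D1:**
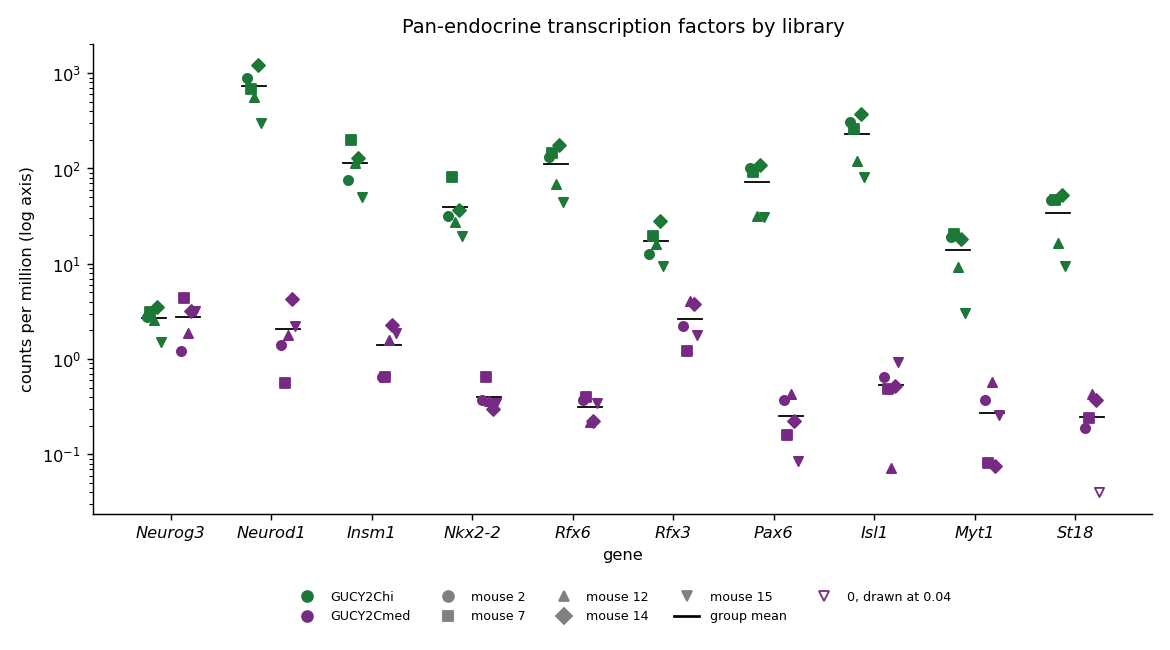
TMM-normalized cpm (log axis) of the 10 factors in each library, by group and mouse, with the group mean as a bar; a count of 0 is drawn open at 0.04. Neurog3 lies at 1.51 to 3.55 cpm in GUCY2Chi and 1.22 to 4.42 cpm in GUCY2Cmed cells, and for the other 9 factors every GUCY2Chi point lies above every GUCY2Cmed point.

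Neurog3 (chr10:62133090-62134763 on GRCm38, plus strand) starts the endocrine program. In GUCY2Chi cells it stood at 2.76, 3.14, 2.57, 3.55 and 1.51 cpm, from 24 to 52 reads a library. In GUCY2Cmed cells it stood at 1.22, 4.42, 1.87, 3.23 and 3.17 cpm, from 13 to 55 reads. The highest and the lowest library were both GUCY2Cmed libraries, mice 7 and 2, and the level was higher in GUCY2Chi cells in 3 of 5 mice. GUCY2Chi over GUCY2Cmed, its log2 fold change was -0.04 (SE 0.39, 95% confidence interval -0.89 to 0.81, adjusted p = 0.954), so ratios of GUCY2Chi to GUCY2Cmed from 0.540 to 1.75 lay within the interval. Neurog3 lies inside the span of Fam241b, a gene of the opposite strand with 885 to 931 reads a library in GUCY2Chi and 537 to 716 in GUCY2Cmed cells. In the NCBIM37 annotation their exons share 273 of the 1540 exonic bases of Neurog3. The Neurog3 count was 2.12% to 10.2% of the Fam241b count, and since the strand setting of the counting is not given in the sources used here, reads of the 2 genes over those bases cannot be told apart.

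The factors of the tier below Neurog3 were among the most changed genes. Neurod1 (chr2:79452521-79456751, minus strand), a bHLH factor that drives cell cycle exit and hormone gene transcription, stood at 889.5, 675, 567, 1208 and 297 cpm in GUCY2Chi cells. In GUCY2Cmed cells it stood at 1.40, 0.562, 1.80, 4.28 and 2.23 cpm. Mouse 14 was highest in both populations. The 2 ranges did not meet, and Neurod1 was 351-fold higher in GUCY2Chi cells (log2 fold change 8.45, SE 0.63, adjusted p = 5.87e-06). Its mean of 727 cpm (SD 343), not scaled for gene length, was the highest of the 970 genes with a transcription factor family in GUCY2Chi cells, followed by Fos with 670 and Hopx with 655 cpm. The range of Neurod1 over mice, 297 to 1208 cpm, took in both of those means. Cerkl, a gene whose span covers Neurod1 on the same strand, had 111 to 365 reads a library in GUCY2Chi cells, against 4714 to 15674 for Neurod1. In the NCBIM37 annotation their exons share 201 of the 2729 exonic bases of Neurod1, and reads over those bases can come from either gene.

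Insm1 (chr2:146221921-146225020, plus strand) encodes a zinc-finger repressor needed for endocrine cell differentiation. It stood at 76.1, 199, 114, 129.8 and 49.6 cpm in GUCY2Chi cells and at 0.655, 0.642, 1.58, 2.25 and 1.88 cpm in GUCY2Cmed cells. Here mouse 7 was the highest GUCY2Chi library, and the groups did not overlap. The difference was 80.0-fold (log2 fold change 6.32, SE 0.50, adjusted p = 8.86e-06). Nkx2-2 (chr2:147177546-147194243, minus strand), a homeodomain factor that acts in the choice between hormone lineages, stood at 31.6, 81.3, 27.6, 36.4 and 19.8 cpm in GUCY2Chi cells. In GUCY2Cmed cells 4 to 8 reads a library gave 0.374, 0.642, 0.360, 0.300 and 0.342 cpm. Mouse 7 was the highest library of Nkx2-2 in both populations. The fold was 95.3 (log2 fold change 6.58, SE 0.47, adjusted p = 4.90e-06).

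The winged-helix factors Rfx6 and Rfx3, of 1 protein family, changed to unequal degrees. Rfx6 (chr10:51677756-51730432, plus strand), which maintains peptide hormone expression in mature cells, stood at 132, 144, 69.1, 174 and 44.5 cpm in GUCY2Chi cells. GUCY2Cmed cells held 3 to 5 reads a library, or 0.374, 0.401, 0.216, 0.225 and 0.342 cpm. Rfx6 was thus close to absent from every GUCY2Cmed library and 355-fold higher in GUCY2Chi cells (log2 fold change 8.47, SE 0.48, adjusted p = 2.13e-06). Rfx3 (chr19:27761721-28011166, minus strand), which also drives genes of cilia in many tissues, stood at 12.5, 19.7, 16.3, 28.1 and 9.57 cpm in GUCY2Chi cells. In GUCY2Cmed cells it was detected at 2.25, 1.20, 4.11, 3.75 and 1.80 cpm, from 15 to 57 reads. It was the least changed of the 9 factors, 6.52-fold (log2 fold change 2.71, SE 0.40, adjusted p = 5.06e-04), with no overlap between groups.

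Pax6 and Isl1 are homeodomain factors of maturing endocrine cells, known for control of the glucagon gene among others. Pax6 (chr2:105668900-105697364, plus strand) stood at 100.5, 91.2, 31.5, 108 and 30.9 cpm in GUCY2Chi cells and at 0.374, 0.161, 0.432, 0.225 and 0.0856 cpm in GUCY2Cmed cells. Mice 12 and 15 were well below the other three in GUCY2Chi cells. The fold was 272 (log2 fold change 8.09, SE 0.57, adjusted p = 4.74e-06). An antisense RNA, Pax6os1, overlaps the span of Pax6 over 1431 bases and had 66 to 508 reads a library in GUCY2Chi cells and 0 to 1 in GUCY2Cmed cells, beside 416 to 1512 and 1 to 6 reads of Pax6. In the NCBIM37 annotation the pair shares 0 exonic bases. Isl1 (chr13:116298281-116309689, minus strand) stood at 308, 257, 119, 373 and 81.6 cpm in GUCY2Chi cells and at 0.655, 0.482, 0.0720, 0.526 and 0.941 cpm in GUCY2Cmed cells. Its change of 427-fold had the highest point estimate of the 10 factors (log2 fold change 8.74, SE 0.64, adjusted p = 5.20e-06), and its interval, 164 to 1148, overlapped those of Neurod1, Rfx6, Pax6, St18, Nkx2-2 and Insm1.

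Myt1 and St18 are paralogous zinc-finger factors found in endocrine cells and in neural cells. Myt1 (chr2:181763332-181827797, plus strand) stood at 19.0, 20.4, 9.16, 18.2 and 3.02 cpm in GUCY2Chi cells and at 0.374, 0.0803, 0.576, 0.0751 and 0.257 cpm in GUCY2Cmed cells, the latter from 1 to 8 reads a library. Its lowest GUCY2Chi value, in mouse 15, was still above its highest GUCY2Cmed value, in mouse 12. The fold was 49.5 (log2 fold change 5.63, SE 0.67, adjusted p = 1.23e-04). St18 (chr1:6487231-6860940, plus strand) stood at 47.2, 47.1, 16.4, 52.0 and 9.38 cpm in GUCY2Chi cells and at 0.187, 0.241, 0.432, 0.375 and 0 cpm in GUCY2Cmed cells. Mouse 15 was lowest in both populations. The fold was 131 (log2 fold change 7.03, SE 0.69, adjusted p = 3.16e-05).

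**Figure D2:**
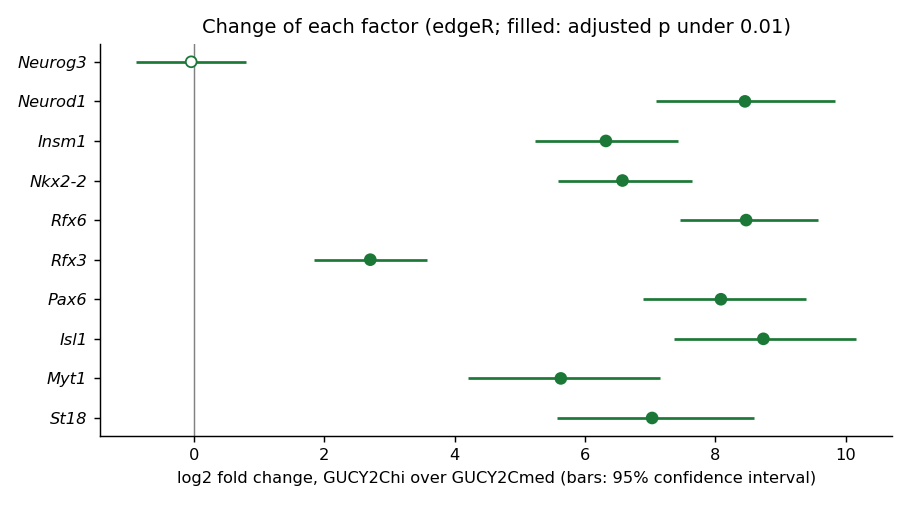
Log2 fold change of each factor, GUCY2Chi over GUCY2Cmed, with its 95% confidence interval from edgeR; filled points had an adjusted p under 0.01. Neurog3 lies at -0.04 with an interval across 0, Rfx3 at 2.71, and the other 8 factors between 5.63 and 8.74.

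Ranked by log2 fold change among the 970 genes with a transcription factor family, Isl1 was 2nd, Rfx6 3rd, Neurod1 4th, Pax6 7th, St18 10th, Nkx2-2 15th, Insm1 17th, Myt1 19th, Rfx3 64th and Neurog3 668th. First was Prrx2, a homeodomain gene without a read in GUCY2Cmed cells. Several ranks in between went to factors of single hormone lineages, such as Lmx1a.

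Compared within a library, the balance between Neurog3 and Neurod1 differed between the populations. For each Neurog3 read, GUCY2Chi libraries held 323, 215, 220.4, 341 and 196 Neurod1 reads. GUCY2Cmed libraries held 1.15, 0.127, 0.962, 1.33 and 0.703. The log2 ratio of Neurog3 to Neurod1, with 0.5 added to each count, averaged -7.96 (SD 0.37, n = 5) in GUCY2Chi and 0.57 (SD 1.34, n = 5) in GUCY2Cmed cells, lower in GUCY2Chi cells in 5 of 5 mice (exact two-sided permutation test, p = 0.00794, the smallest that 5 against 5 libraries allow, adjusted over 3 ratios p = 0.0119). A ratio within a library does not depend on how the libraries are scaled. The 3 ratios tested combine fold changes already given, for genes chosen with earlier results known. Their tests thus add no separate support.

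The Rfx pair changed places. Rfx6 reads outnumbered Rfx3 reads in every GUCY2Chi library, at 10.5, 7.30, 4.25, 6.21 and 4.65 to 1, and Rfx3 reads outnumbered Rfx6 reads in every GUCY2Cmed library, at 6, 3, 19, 16.7 and 5.25 to 1. The log2 ratio of Rfx3 to Rfx6 averaged -2.64 (SD 0.53) and 2.82 (SD 1.09), a difference of -5.46 (exact permutation p = 0.00794, adjusted p = 0.0119, n = 5 per group). With the libraries kept in pairs by mouse, an exact sign-flip permutation test over 5 mice can give no p below 0.0625, and both ratios had that value (adjusted p = 0.0938). For St18 to Myt1 the ratio averaged 1.30 (SD 0.30) in GUCY2Chi cells, where St18 reads were 1.79 to 3.10 times those of Myt1, and -0.19 (SD 1.84) in GUCY2Cmed cells. The difference of 1.49 did not pass the test (exact permutation p = 0.135, n = 5 per group), with 0 to 8 reads of either gene in GUCY2Cmed libraries.

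Levels were compared between genes on the length-scaled FPKM of the deposited table. In GUCY2Chi cells Neurod1 had 289 FPKM (SD 123), Isl1 182 (SD 95.8), Rfx6 46.9 (SD 22.5), Nkx2-2 46.1 (SD 33.4), Pax6 45.6 (SD 24.01) and Insm1 41.0 (SD 23.9). Below these came St18 with 13.98 FPKM (SD 8.27), Myt1 with 6.03 (SD 3.50), Rfx3 with 5.71 (SD 2.18) and Neurog3 with 2.66 (SD 0.748). Neurod1 exceeded Isl1 in 5 of 5 libraries although their ranges over mice overlapped, and Isl1 lay above Rfx6 without overlap, from 70.9 against up to 68.4 FPKM. Rfx6, Nkx2-2, Pax6 and Insm1 overlapped broadly, as did Myt1 and Rfx3. In GUCY2Cmed cells the order was led by Neurog3 with 2.24 FPKM (SD 1.03), then Rfx3 with 0.723 (SD 0.346) and Neurod1 with 0.674 (SD 0.447). These orders depend on the transcript lengths behind FPKM: dividing cpm by the gene lengths listed in the same table kept the rank of 4 of 10 factors in GUCY2Chi cells. By that measure Rfx3 was last with 1.56 cpm per kb, just below Neurog3 with 1.62, and Insm1 was 3rd.

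Taken as a sum, the 10 factors made up 1619, 1538, 973, 2131 and 547 cpm in GUCY2Chi cells and 7.86, 8.83, 11.5, 15.2 and 11.04 cpm in GUCY2Cmed cells. Neurod1 supplied 43.9% to 58.3% of the GUCY2Chi sum. Neurog3 supplied 0.166% to 0.276% of the sum in GUCY2Chi cells and 15.5% to 50.0% in GUCY2Cmed cells.

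Within GUCY2Chi cells the factors shared their lowest library. Mouse 15 was the lowest GUCY2Chi library for 10 of 10 factors, Neurog3 included, and mouse 14 was the highest for 7 and mouse 7 for Insm1, Nkx2-2 and Myt1. This is not particular to the factors: the summed enteroendocrine markers were also lowest in mouse 15, at 35828 cpm, and highest in mouse 14, at 140149 cpm. The share of all tested genes lowest in mouse 15 was not counted. From lowest to highest GUCY2Chi library the span was 2.35-fold for Neurog3, 2.93-fold for Rfx3, 3.48-fold to 4.58-fold for the 6 factors Pax6, Rfx6, Insm1, Neurod1, Nkx2-2 and Isl1, 5.54-fold for St18 and 6.76-fold for Myt1. Over all 10 libraries, on log2(cpm + 0.1) centred on the mean of each gene, the closest profiles among the factors were Rfx6 and Pax6 (root mean square difference 0.57), Rfx6 and Isl1 (0.60), Pax6 and St18 (0.68) and Insm1 and Nkx2-2 (0.72). The most distant were Neurog3 and Neurod1 (4.32). These distances are a description over 10 libraries in 2 groups and carry no test.

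**Figure D3:**
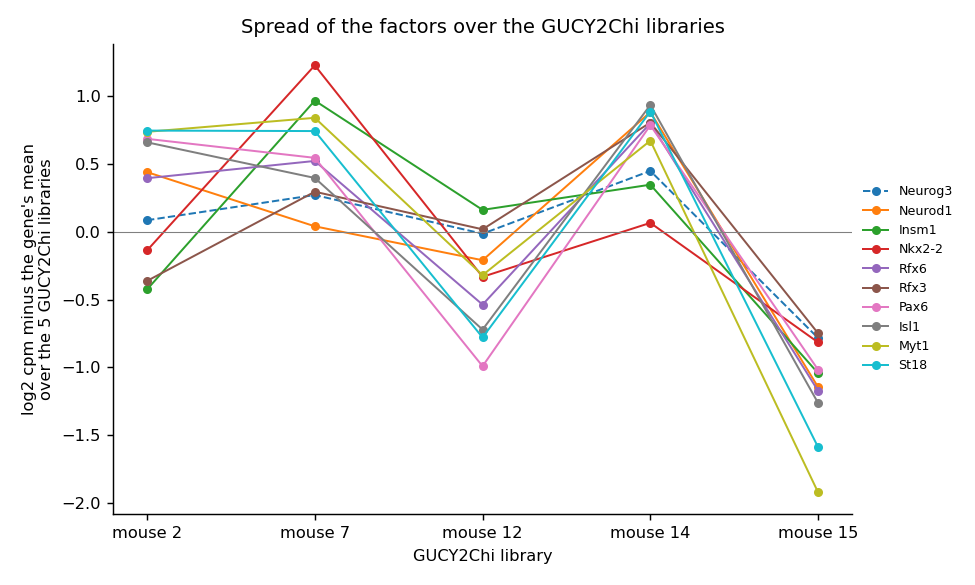
Log2 cpm of each factor in the 5 GUCY2Chi libraries, minus its mean over these libraries; lines join the values of 1 gene and give the mice no order, and Neurog3 is dashed. All 10 factors have their lowest point in mouse 15, and Insm1, Nkx2-2 and Myt1 have their highest in mouse 7.

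By the same distance, the genes outside the list nearest to each factor differed. Nearest to Isl1 were Gcg, which encodes glucagon and GLP-1 (0.56), Chga, a granule protein (0.63), and Gpr119, a lipid receptor of endocrine cells (0.64). Among the 3 nearest to Pax6 were Qpct, which caps hormone N-termini (0.42), and Cerkl (0.46), which shares exonic bases with Neurod1 as given above. Nearest to Rfx6 were Cyp2j12 (0.39), Prrx2 (0.48) and 9530053A07Rik (0.49), and nearest to Neurod1 were 1110032F04Rik (0.48), Tmigd3 (0.50) and Cwh43 (0.52). For Insm1 they were Tpbg (0.43), Serpinf2 (0.45) and Pla2g2f (0.50), and for Nkx2-2 Pde11a (0.41), Adora2a (0.47) and Trpm2 (0.50). For Myt1 they were Col8a1 (0.40), Nme9 (0.45) and Otulinl (0.55), and for St18 Klhl32 (0.37), Vim (0.50) and 9330154J02Rik (0.51). Rfx3 was nearest to Tceal8 (0.26), Arl6, a small GTPase of cilia (0.27), and Dusp18 (0.27). Neurog3 was nearest to Xpo4, Onecut2 and Itga6 (0.24 to 0.25), genes with about equal means in both groups.

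The other genes of the program were counted from fixed lists, which are shown together in the plot of fold changes by list. Over all tested genes 13.9% were called higher and 8.79% lower, and no list was tested against these shares. Among 9 genes of early endocrine progenitors, 6 were higher and 0 lower by edgeR, with a median log2 fold change of 2.46; limma-voom and DESeq2 also called 0 lower, and 1, Dll1, named after its value was seen, was lower at an unadjusted p under 0.05. Btbd17 rose by 5.54 on the log2 scale (adjusted p = 2.33e-05), Pax4, a homeodomain factor of early endocrine cells, by 4.84 (adjusted p = 5.71e-05), Mfng, a Notch glycosyltransferase, by 4.60 (adjusted p = 5.17e-04) and Cbfa2t3, a corepressor, by 2.46 (adjusted p = 9.79e-04). The uncalled Hes6, with a mean of 194 cpm in GUCY2Chi and 140.4 in GUCY2Cmed cells, differed by 0.47 (adjusted p = 0.0825), and Gadd45a by 1.13 (adjusted p = 0.0464). With the mouse as replicate block in edgeR 4 were called higher: Cbfa2t3 (adjusted p = 0.0127) and Cdkn1a (adjusted p = 0.0174), the latter named after its value was seen, lost the call.

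Upstream of commitment, where Notch signaling and Atoh1 set secretory fate, 1 of 9 genes was higher and 1 lower, and 7 were not called. Beside 13.9% and 8.79% of all tested genes, such counts are not read as a result about the list. Dll4, a Notch ligand, was higher by 2.15 (adjusted p = 0.00169) and Hes1, the Notch target that represses Neurog3, was lower by 1.46 (log2 fold change -1.46, adjusted p = 0.00385). Atoh1, with 27.3 and 22.5 cpm, differed by 0.28 (adjusted p = 0.675) and Rbpj by -0.25 (adjusted p = 0.498). The call on Hes1 was lost with the mouse as replicate block in edgeR (adjusted p = 0.0110) and without GUCY2Chi mouse 2, GUCY2Cmed mouse 12 or GUCY2Cmed mouse 15 (adjusted p up to 0.0150).

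Of 16 bHLH partners and cofactors of these proteins, 4 were higher and 2 lower, beside 13.9% and 8.79% of all tested genes. Such small counts are not read as a result about the list. Rcor2, a corepressor that joins zinc-finger repressors to a histone demethylase, was higher by 2.43 (adjusted p = 0.00137), Id2, an inhibitor of bHLH dimers, by 2.11 (adjusted p = 2.88e-04) and Ldb1, the LIM-domain partner of Isl1, by 1.17 (adjusted p = 0.00175). Rest, the repressor of neuronal and endocrine genes, was lower (log2 fold change -1.85, adjusted p = 0.00122). The uncalled Id1 differed by 0.84 (adjusted p = 0.0822) and Hdac1 by 0.42 (adjusted p = 0.0985). With the mouse block in edgeR 2 were higher and 1 lower: Rcor2 (adjusted p = 0.0110), Id3 (adjusted p = 0.0134) and Hmg20b (adjusted p = 0.0166), the last 2 named after their values were seen, lost the call.

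Of 24 paralogs of the factors, 9 passed the filter on low counts and 8 had no read in any library, Neurog1, Neurod4, Nkx2-3, Nkx2-5, Nkx2-9, Pax3, Pax5 and Pax7. Among the 9 tested, 2 were higher and 1 lower, counts likewise not read as a result about the list. Pax4 was higher, as given above, Rfx2 was higher by 4.75 (adjusted p = 7.94e-04) and Pax8 was lower (log2 fold change -2.38, adjusted p = 0.00589). Rfx7 differed by 0.56 (adjusted p = 0.250) and Myt1l by 0.18 (adjusted p = 0.921). In the mouse block in edgeR Rfx2 (adjusted p = 0.0134) and Pax8 (adjusted p = 0.0137) lost the call, and Pax8 kept it in 2 of 10 fits with 1 library left out, those without GUCY2Chi mouse 12 or GUCY2Chi mouse 15.

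Factors that set apart single hormone lineages were higher with the pan-endocrine ones: 10 of the 12 tested were higher and 0 lower, with a median log2 fold change of 4.30, or 4.27 with Onecut3 at the bound given below, and limma-voom, DESeq2 and an unadjusted p under 0.05 also gave 0 lower. Lmx1a, a factor of serotonin cells, rose by 8.12 (adjusted p = 8.67e-06) and Fev, another factor of serotonin cells, by 7.11 (adjusted p = 1.78e-05). Onecut3 had at most 3 reads in each GUCY2Cmed library and was at least 26.6-fold higher (adjusted p = 6.87e-05), the bound being taken against 3 reads in a library. Pdx1, a factor of the whole proximal gut epithelium, differed by 0.80 (adjusted p = 0.0475) and Egr3 by 0.14 (adjusted p = 0.942). Nkx6-1, a beta-cell factor, had no read. Limma-voom called 9 higher, and the mouse as replicate block in edgeR 8: there Mnx1 (adjusted p = 0.0121) and Etv1 (adjusted p = 0.0125), both named after their values were seen, lost the call.

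Since Rfx3 and Rfx2 act in cilia, intraflagellar transport and BBSome genes were counted too. Of 22 tested, 10 were higher and 0 lower by edgeR, beside 13.9% and 8.79% of all tested genes, with a median log2 fold change of 1.47. The summed level of the list differed little, at 350 to 434 cpm in GUCY2Chi and 286 to 330 cpm in GUCY2Cmed cells. Ift57 rose by 3.77 (adjusted p = 1.73e-04), Ift80 by 3.57 (adjusted p = 1.83e-04), Dync2li1 by 3.43 (adjusted p = 6.55e-05) and Ttc8 by 3.32 (adjusted p = 1.77e-04). Ift20, with a log2 fold change of -0.55 (adjusted p = 0.0573), and Ift46, with 0.05 (adjusted p = 0.900), were not called, and 2 of the 22 were lower at an unadjusted p under 0.05. Limma-voom and DESeq2 each called 1 lower, Ift43, named here after its value was seen (edgeR adjusted p = 0.0108). Foxj1, the master factor of motile cilia, was not tested, with 0.0454 cpm on average in GUCY2Chi cells and no read in GUCY2Cmed cells.

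**Figure D4:**
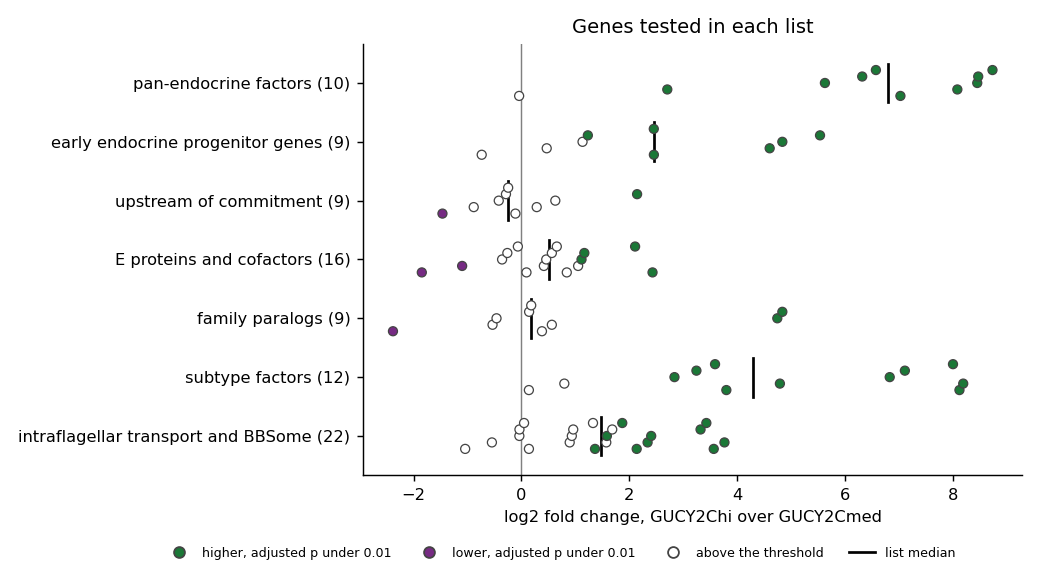
Log2 fold change of each tested gene of 7 lists, GUCY2Chi over GUCY2Cmed, with the number tested in parentheses and the list median as a bar; the plotted value of Onecut3 depends on the prior count of the fit. The medians run from -0.25 for genes upstream of commitment to 6.80 for the 10 pan-endocrine factors.

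Other cell types were followed by marker lists beside these results. Enterocyte markers, summed, stood at 3814, 2809.6, 27308, 3680.0 and 27709.6 cpm in GUCY2Chi cells and at 48272 to 66603 cpm in GUCY2Cmed cells, and 2 of 10 were called lower by edgeR, 7 by limma-voom, 9 by DESeq2 and 9 by limma-voom with the mouse as replicate block. Mice 12 and 15, whose GUCY2Chi libraries held most enterocyte RNA, were also those with the lowest sums of the 10 factors there. Forebrain neuron markers such as Nrgn and Camk2a stood at 29.1, 376, 349.8, 30.4 and 1116 cpm in GUCY2Chi and at 476, 11.9, 627, 465 and 222 cpm in GUCY2Cmed cells, and 0 of 7 were called by edgeR, limma-voom or DESeq2 or had an unadjusted p under 0.05. Several of the factors are also made in neurons. In the same order of mice the 10 factors summed to 1619, 1538, 973, 2131 and 547 cpm in GUCY2Chi cells, and the part of neuronal RNA in them was not tested.

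Of the pancreatic islet markers, Ins1 had no read in GUCY2Chi cells and Ins2 averaged 0.0488 cpm there, while Iapp and G6pc2 were called higher. Of the enteric neuron markers, Hand2 had no read, and of 3 tested 0 were called by edgeR or limma-voom and 1, higher, by DESeq2 and at an unadjusted p under 0.05. Oligodendrocyte markers summed to 58.7 to 109 cpm in GUCY2Chi and 14.1 to 59.7 cpm in GUCY2Cmed cells. Of 4 tested, 1 was called higher by edgeR, Mag, and 2 were higher by limma-voom, by DESeq2 and at an unadjusted p under 0.05. Of the cerebellar markers, Gabra6 and Zic2 had no read while Cbln3 was called. The part of oligodendrocytes and cerebellar neurons in the results was not tested. With the mouse as replicate block in edgeR G6pc2 (adjusted p = 0.0176), Mag (adjusted p = 0.0157) and Cbln3 (adjusted p = 0.0191) lost the call and Iapp kept it. Of the markers of proliferation 4 of 6 were lower in GUCY2Chi cells, but 0 with the mouse as replicate block in edgeR (adjusted p = 0.0107 for Top2a to 0.0306 for Ccnb1) and 2 with it in limma-voom, although 6 had an unadjusted p under 0.05 without the block. Of the 4 stem cell markers 0 were called by edgeR, limma-voom or DESeq2, with 3 lower at an unadjusted p under 0.05.

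Myeloid and B cell markers summed to 36.1 to 802 cpm in GUCY2Chi and 594 to 4498 cpm in GUCY2Cmed cells; of 2 tested edgeR and limma-voom called 0 (1 higher and 1 lower at an unadjusted p under 0.05), and DESeq2 and both fits with the mouse block called 1 lower. Goblet markers summed to 1970 to 21522 and 4101 to 12228 cpm and Paneth markers to 4456 to 30024 and 4766 to 10725 cpm, both highest in GUCY2Chi mouse 2. Of the 6 and 5 tested 0 were called by edgeR, limma-voom or DESeq2, with 3 goblet markers and 1 Paneth marker at an unadjusted p under 0.05. Of 5 mesenchymal and endothelial markers, at 0.693 to 7.12 and 0 to 0.648 cpm in sum, the 1 tested, Pecam1, was called higher (adjusted p = 0.00546), but not with limma-voom (adjusted p = 0.0250) or the mouse block in edgeR (adjusted p = 0.0378). The part of these cells in the results was not tested. With mice 12 and 15 left out in both groups, the same 9 factors were called higher, with log2 fold changes of 3.05 for Rfx3 to 9.13 for Isl1, and Neurog3 stood at 0.09 (adjusted p = 0.913).

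**Figure D5:**
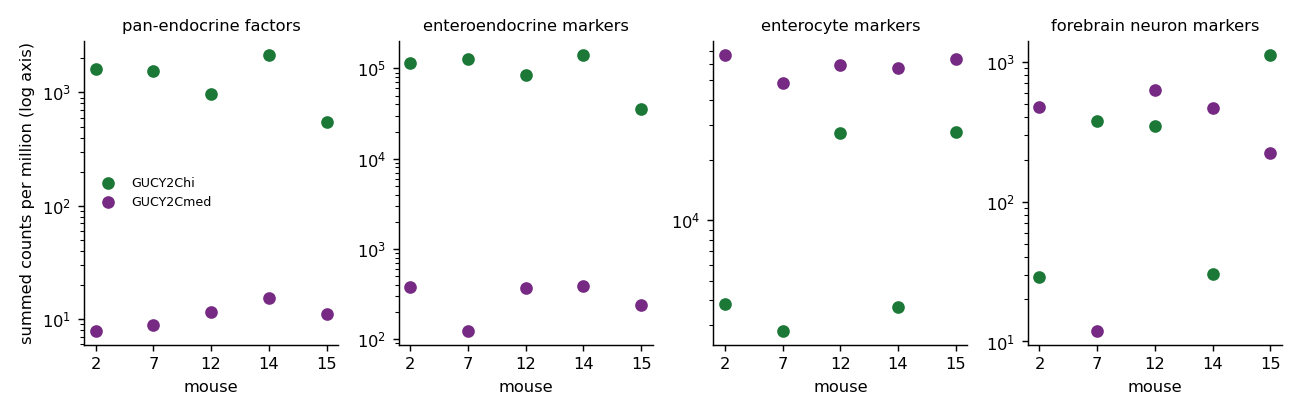
Summed cpm (log axes, each panel with its own scale) of the 10 factors and of enteroendocrine, enterocyte and forebrain neuron markers, by mouse and group. The GUCY2Chi libraries of mice 12 and 15 have both the lowest sums of factors, 973 and 547 cpm, and the highest sums of enterocyte markers, 27308 and 27709.6 cpm; the forebrain sums of the 2 groups overlap.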

How the data were processed

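RNA-seq of sorted small intestinal cells was analysed from the deposited gene table. The deposited read counts are whole numbers per gene, unnormalized, from paired-end reads that the sequencing provider mapped with STAR; the counting program, its strand setting and the annotation release are not given in the sources used here. The FPKM values, as deposited, are those counts relative to transcript length and library size, and served only to order levels between genes. The submitters' notes name limma 3.40.6 and edgeR 3.26.8. The authors' own comparison (log fold changes, p-values) and 10 per-library columns of normalized values were not used. The labels call the GUCY2Cmed libraries both Medium and Lo.

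Genes above 0.5 cpm in at least 3 libraries were kept (15703 of 54532) and tested in R 4.3.3 with edgeR 4.0.16 (TMM factors, quasi-likelihood test, no term for the mouse, all 10 libraries), with limma 3.58.1 and DESeq2 1.42.0 as alternatives. The biological coefficient of variation was 0.458. The scripts were tested on simulated data. Tables and figures used Python 3.11.15, pandas 2.3.3, numpy 2.4.6 and matplotlib 3.10.9. Ratios within a library were tested by exact permutation of the libraries, two-sided. A count of 3 was taken as the floor, which covers counting error only.

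The paper describes litter-matched mice sorted into both groups, and the numbers in the labels are taken to pair libraries by animal. Deviations of same-numbered libraries from their group means correlated at -0.11, -0.22, 0.27, -0.12 and 0.06. Only for mouse 12 was the same-numbered GUCY2Cmed library the best match of the GUCY2Chi library. The mouse as replicate block was an alternative. Other alternatives were upper-quartile factors, RLE factors, library size only, removal of the 50 genes with most reads, other filters, a threshold of 0.05, each library left out and, added after seeing the data, mice 12 and 15 left out.

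The 10 factors and all gene lists were chosen with earlier results of these data known. From each list, at most the 4 called genes with the largest fold change and the 2 most abundant uncalled genes are named, and for each factor the 3 genes of at least 5 cpm nearest in profile. Some genes that this rule names are not reported here. The motifs were chosen after promoter sequences had been seen. The labels name mm9, but positions overlap those of GRCm38 for 99.9% of 37624 gene symbols and those of NCBIM37 for 9.66% of 28329.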

Additional observations from a re-analysis of the deposited data

Results flagged for a closer look

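Nkx2-2 had a library flagged by its gap to the others in both populations. In GUCY2Chi cells mouse 7 stood at 81.3 cpm, and its gap to the next library was 0.73 of the whole range of the group. In GUCY2Cmed cells mouse 7 stood at 0.642 cpm, from 8 reads against 4 or 5 in the other libraries, with a gap of 0.78 of the range. The gap takes no account of counting error, which is large at so few reads. Of 20 groups examined, 10 factors in 2 populations, these 2 passed Dixon's critical value of 0.71 for 5 samples, and chance passes about 1 in 20. Without GUCY2Chi mouse 7 or GUCY2Cmed mouse 7, Nkx2-2 was still called higher in GUCY2Chi cells.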

How the results depend on the processing

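The calls on the 9 higher factors held in each of the 21 alternative fits where the factor was tested, with adjusted p up to 0.00391, including the mouse as replicate block in edgeR and limma-voom, which changed no call on a factor. With at least 10 counts required in every library 1 factor, Rfx3, was called higher, because only Rfx3 and Neurog3 passed that filter. Neurog3, never called, changed sign: 0.011 with limma-voom, 0.032 with the replicate block in edgeR, 0.24 with library size only, 0.031 with upper-quartile factors, 0.086 with at least 10 counts and 0.088 without mice 12 and 15, and -0.19 to 0.18 with 1 library left out. Library size only moved the median of all genes by 0.29. With no filter it was 0.21 over 28618 genes and 0.11 over the 15703 genes tested above, against 0.09. The log2 ratios of Neurog3 to Neurod1, -8.53, and of Rfx3 to Rfx6, -5.46, had an adjusted p of 0.0938 in the sign-flip test with the mouse as replicate block, where 0.0625 is the smallest p possible. The order of levels kept 4 ranks with cpm per kb.

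Over all genes, 1294 were higher and 779 lower with the replicate block in edgeR, 557 lower with library size only, 2235 lower with DESeq2, and 3367 higher and 2767 lower at a threshold of 0.05. With 1 library left out, 1636 to 2534 were higher, the fewest without GUCY2Chi mouse 14, and 512 to 1609 lower, the fewest without GUCY2Chi mouse 2. Genes lower among those upstream of commitment numbered 0 with the replicate block in edgeR and with library size only, and 0 to 1 with 1 library left out. Among partners and cofactors, 2 were higher and 1 lower with the replicate block in edgeR, and 1 was lower with the replicate block in limma-voom, with library size only and without mice 12 and 15 (1 to 2 with 1 library left out). Among paralogs, 1 was higher with limma-voom and with the replicate block in edgeR, and 0 were lower with that block (0 to 1 with 1 library left out). Among cilia genes, 1 was lower with limma-voom and DESeq2 and 2 without mice 12 and 15 (0 to 1 with 1 library left out). The cause of these differences was not tested. Depth limits the GUCY2Cmed levels: 7 of the 9 higher factors had at most 30 reads in every GUCY2Cmed library.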
